A study of Homo sapiens with 2 samples.

Results

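The intervals described here are those that the deposited list assigned to TMEM49, the older symbol of VMP1, and they number 7 of the 4169 intervals in the list. The members were chosen by the measured positions of called intervals: every interval whose list of genes, assigned by the authors, held TMEM49 was taken. Heights, scores and positions of the 7 are therefore given as a description, with no test. The study made 1 ChIP library with the antibody Sigma G4405 against sGCβ1, a subunit of soluble guanylate cyclase (the receptor of nitric oxide), and 1 input library with no antibody. Both came from U-87 MG, an established line from a malignant glioma, made to overexpress sGCβ1 and given no treatment. How the subunit was overexpressed, and whether the cells were a single clone, the labels do not say. All values below come from the ChIP library. The input library was not analysed here, no cells without overexpression were among the samples, and without a replicate no value has a replicate error. Since no read total was at hand, depth is unknown, and heights cannot be given an interval.

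VMP1 encodes a membrane protein of the endoplasmic reticulum that is needed to form autophagosomes and that loosens contacts between the reticulum and other membranes. Its 3′ end overlaps the gene of miR-21, a microRNA that is abundant in glioblastoma and represses growth inhibitors such as PDCD4. The primary transcript of miR-21 has a promoter of its own inside the last part of VMP1, and binding sites of AP-1, the dimer of FOS and JUN proteins, have been described there. In the reference annotation VMP1 lies on the plus strand of chromosome 17 from 57784553 to 57919616 (hg19), a length of 135064 bp. The 72 bp hairpin of MIR21, from 57918627 to 57918698, lies inside the 3′ untranslated part of exon 12 of VMP1, 918 bp before the end of the gene.

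The sequences shown are 300-base windows around summits, read on the plus strand of GRCh37, the same build as hg19. The window of interval 7 is shown because it holds a word of the AP-1 site, TGAGTCA or its reverse complement TGACTCA, which is set in capitals. That of interval 4, upstream of the hairpin, is shown as a neighbour without the word. Interval 7 is chr17:57923179-57923478 and interval 4 chr17:57916726-57917025. For miR-21 the mature 5p strand is given as RefSeq lists it (GRCh38.p14), with the seed, bases 2 to 8, in capitals.
interval 4: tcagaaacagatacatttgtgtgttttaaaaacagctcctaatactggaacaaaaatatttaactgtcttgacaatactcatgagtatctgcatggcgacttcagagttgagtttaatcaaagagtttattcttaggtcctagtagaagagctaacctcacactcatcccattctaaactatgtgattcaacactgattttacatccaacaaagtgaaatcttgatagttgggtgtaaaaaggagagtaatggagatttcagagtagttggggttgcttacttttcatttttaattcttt
interval 7: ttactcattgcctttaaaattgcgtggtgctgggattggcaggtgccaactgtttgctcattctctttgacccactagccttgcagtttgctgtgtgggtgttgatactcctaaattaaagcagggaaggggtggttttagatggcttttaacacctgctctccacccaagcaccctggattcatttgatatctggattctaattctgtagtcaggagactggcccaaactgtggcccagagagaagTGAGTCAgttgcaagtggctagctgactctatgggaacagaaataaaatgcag
hsa-miR-21-5p: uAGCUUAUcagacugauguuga

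The intervals gathered at the 3′ end of VMP1, around MIR21, and none lay near the start of VMP1. From the gene start, 78.8 kb (58.3% of its length) held no interval. Intervals 1 and 2 stood alone in introns and were assigned to TMEM49 only. The other 5, numbers 3 to 7 in order along the chromosome, had their summits within 8736 bp and were all assigned to MIR21 as well. By the authors' annotation 0 of the 7 touched a CpG island, whereas 35.0% of all intervals in the list did. Few did at the other genes compared below either. PRKG1 had 1 of 15, MKLN1 2 of 9, HMGA2 1 of 8, PCDH9 1 of 7, NAV2 1 of 7 and PALM2-AKAP2 0 of 7.

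Interval 1, from 57863351 to 57864474, had its summit in intron 7, 78929 bp from the TMEM49 start as deposited. Its height, which is the highest fragment density that the authors give within it, was 13. Interval 2, from 57902466 to 57903574, had its summit in intron 10, at 118156 bp, and a height of 10, the lowest of the 7. These 2 intervals lay 54835 and 15608 bp upstream of the MIR21 start by their summits.

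Upstream of the hairpin came intervals 3 and 4. Interval 3, from 57914144 to 57915111, had its summit in intron 10, 4035 bp upstream of the MIR21 start, with a height of 13. Interval 4, from 57916452 to 57917544, had its summit in intron 11, 1752 bp upstream, with a height of 15. These are the last introns of VMP1, where the promoter of miR-21 is known to lie.

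Interval 5 contained the miR-21 hairpin itself. It ran from 57917633 to 57918939, had a height of 12 and its summit 403 bp upstream of the MIR21 start, and ended 241 bp past the hairpin. The deposited list calls this summit downstream of TMEM49, whereas the annotation used here places it in the 3′ untranslated part of exon 12. By the deposited positions 4 of the 7 summits were inside the gene and 3 downstream. By the annotation 4 were in introns, 1 in the untranslated region, 0 in a coding exon and 2 beyond the gene.

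Intervals 6 and 7, downstream of the hairpin, were the tallest of the 7. Interval 6, from 57919240 to 57922669, had a height of 26 and its summit 1949 bp downstream of the MIR21 start and 960 bp past the end of VMP1. Its first 377 bp lay on the last exon of VMP1. Interval 7, from 57922740 to 57924252, had a height of 18 and its summit 4701 bp downstream of the MIR21 start.

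**Figure D1:**
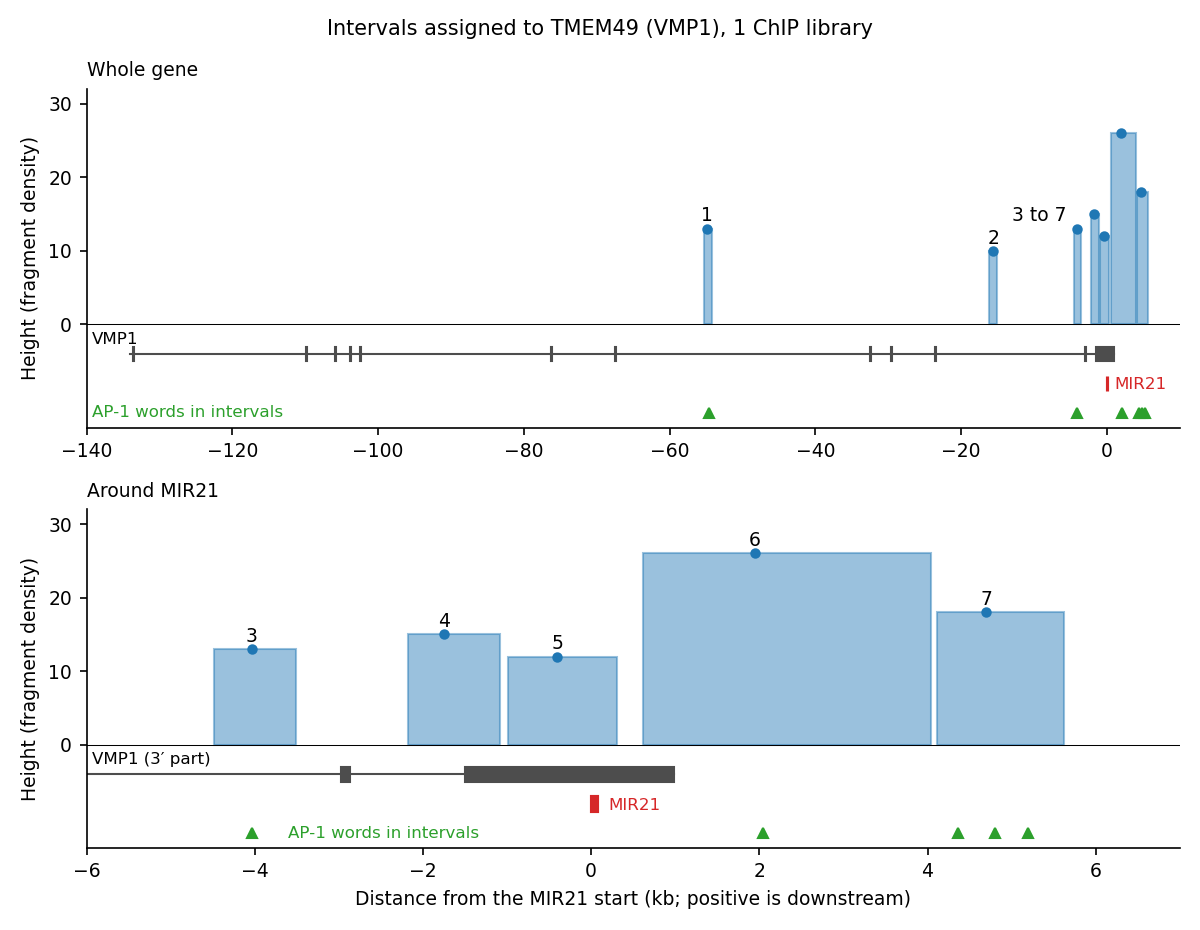
Intervals assigned to TMEM49 over the whole gene (upper panel) and around MIR21 (lower panel), by distance from the MIR21 start in kb. Each blue rectangle spans 1 interval up to its height, dots mark summits, grey boxes are VMP1 exons and triangles are AP-1 words inside intervals. Intervals 3 to 7 crowd around MIR21, and 6 and 7 are the tallest, at 26 and 18.

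Intervals 4 to 7 formed an almost unbroken run. The gaps were 89 bp between 4 and 5, 301 bp between 5 and 6, and 71 bp between 6 and 7, and intervals covered 94.1% of the 7800 bp from 57916452 to 57924252. In the whole list 21 of 4145 neighbouring pairs on the same chromosome (0.507%) were separated by less than 100 bp, and 2 of these pairs lay in this run. The median gap was 182781 bp. With intervals less than 1000 bp apart merged, the run was 1 interval and TMEM49 had 4.

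Few other intervals lay around this run. Besides the 7, the list held 1 interval within 500 kb of VMP1, at the start of CLTC, the clathrin heavy chain gene. It ran from 57696444 to 57697748, had a height of 18 and was also assigned to LOC100506863. It lay 87.5 kb before the start of VMP1. Downstream, the next interval was 2250 kb past the end of VMP1 and had no assigned gene. Of the 8 protein-coding genes other than VMP1 within 200 kb (DHX40, CLTC, PTRH2, TUBD1, RPS6KB1, RNFT1, HEATR6 and the unnamed ENSG00000267318), 1 had an interval, CLTC, a share near that of all protein-coding genes in the list (15.4%). PTRH2, whose start faces that of VMP1 on the opposite strand, TUBD1, a tubulin gene, and RPS6KB1, the S6 kinase gene, had 0.

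Interval 6 differed from the other 6 in score, length and mean density. The MACS score, a p-value written as minus 10 times its log10, begins at 70 in this list. Interval 3 had a score of 76.9, interval 2 83.1, interval 1 100.1, interval 4 103.1, interval 5 134.1, interval 7 184.3 and interval 6 1269. The median of the list was 99.22, so that 5 of the 7 lay above it, but among the members interval 6 stood alone. Interval 6 was 3429 bp long and had a mean density of 14.2, while the other 6 were 967 to 1512 bp long with means of 5.94 to 7.68. The medians of the list were 1296 bp and 7.3.

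The score of interval 6 was high for its height. In the list 23 intervals had a height of 26, and the scores of the other 22 ran from 72 to 386.3 with a median of 144.2. Their mean densities ran from 8.1 to 11.6, against 14.2, and their median length was 1412 bp, against 3429 bp. Of the 120 intervals with a higher score than interval 6, the lowest height was 64 and the median height 131. Among the 3758 intervals with a height under 40 interval 6 had the highest score, and the next, 544.9, belonged to one with a height of 38. By height alone interval 6 ranked 552 of 4169, by score 121 and by length 72. The score weighs density against a local background that the file does not give. The parts of that background and of the length of interval 6 in this score were not tested.

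**Figure D2:**
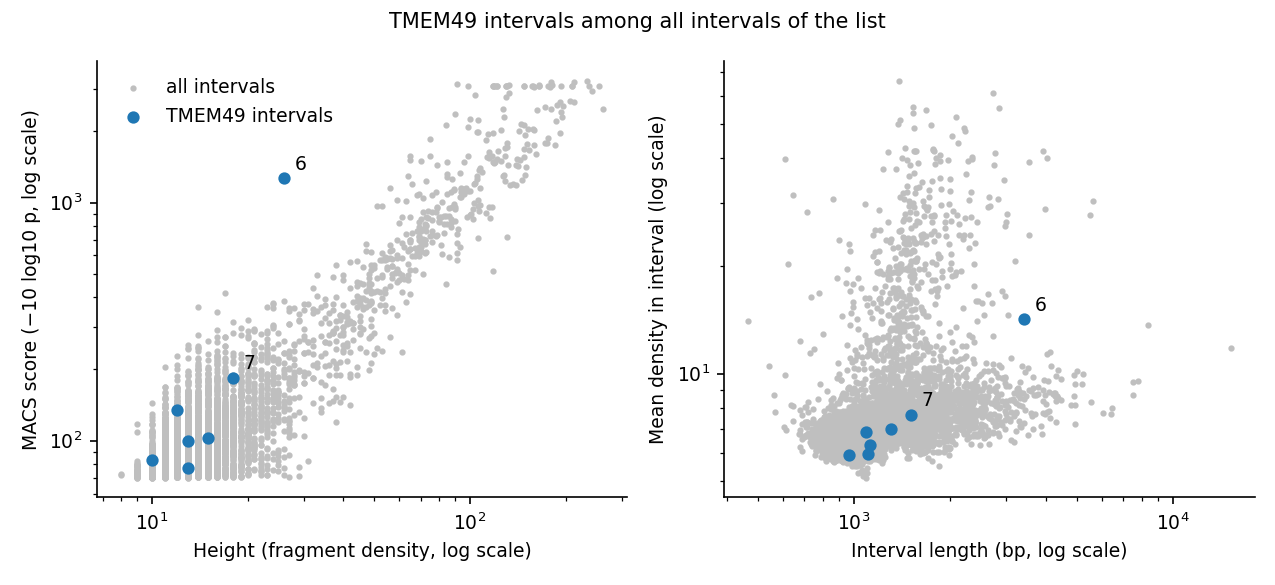
MACS score against height (left) and mean density against length (right) for all 4169 intervals (grey) and the 7 TMEM49 intervals (blue), all axes logarithmic. At a height of 26 interval 6 has a score of 1269, apart from the other intervals of like height, while the other 6 members lie within the bulk of the list.

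Few genes in the list had more intervals than TMEM49. As called, its intervals were the most closely spaced by the median among the 7 genes compared here. Of 3677 gene symbols with an interval, 5 had more than 7 and 3 others had 7: PCDH9, a protocadherin gene, NAV2, a gene of neuronal growth, and PALM2-AKAP2, a kinase-anchoring protein gene. The median distance between neighbouring summits was 2552 bp at TMEM49. It was 15728 bp at HMGA2, which encodes an architectural chromatin protein and had 8 intervals, 22480 bp at PALM2-AKAP2, 49344 bp at MKLN1 (9 intervals) and 81664 bp at PRKG1, the cyclic GMP-dependent kinase gene (15 intervals). Relative to gene length, TMEM49 had 5.18 intervals per 100 kb and HMGA2, a gene of similar length at 141832 bp, had 5.64. PRKG1 had 1.15.

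The median height at TMEM49 was close to that of these genes, and its highest score was above theirs. The median height was 13 at TMEM49, 13 at PRKG1, 16 at MKLN1 and 12.5 at HMGA2, where the list as a whole had 14. The highest score was 1269 at TMEM49, compared with 190.1 at PRKG1, 218.8 at MKLN1 and 278.7 at HMGA2. Of the genes with 7 intervals, PALM2-AKAP2 alone had all of them inside the gene and none on a CpG island. TMEM49 itself does not meet that rule in full, as it had 3 listed as downstream, and PALM2-AKAP2 is longer by 539124 bp.

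**Figure D3:**
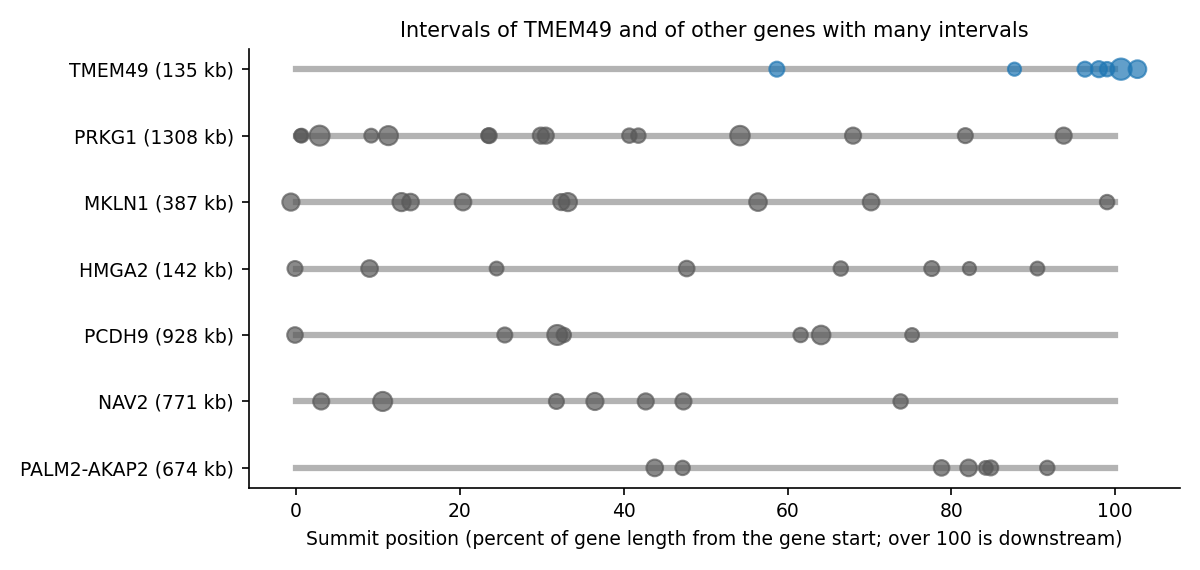
Summit positions, in percent of gene length from the gene start, for TMEM49 and 6 other genes with many intervals; the area of each point is proportional to height. The TMEM49 summits lie from 58.7% of the gene onwards, with 5 near or past its end, and those of PALM2-AKAP2 also lie in the later part, from 43.8% to 91.7%, whereas those of PRKG1, MKLN1 and HMGA2 are spread along the gene.

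Among microRNA genes MIR21 had the most intervals. The list named 35 genes with symbols beginning in MIR, of which MIR21 had 5, MIR612 had 3 and MIR605 had 2. The list had 3 stretches with 5 or more summits within 10000 bp. One was that at MIR21. Another lay on chromosome 11 at NEAT1, a long noncoding RNA gene, with 8 intervals of heights 9 to 20 and scores up to 172.9. Up to 6 of the 8 had summits within 10000 bp. FRMD8 and MIR612 were also among the genes assigned to intervals of this stretch. The last lay on chromosome 16 and was assigned to no gene, with 6 intervals of heights 23 to 54 and scores up to 498.3. Up to 5 of the 6 had summits within 10000 bp.

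Words of the AP-1 site lay close to the summits of 3 of the 7 intervals. Sequence was not used to choose the members. The word was in the 300 bp window of intervals 3, 6 and 7 (3 of 7, 42.9%, exact Clopper-Pearson 95% interval 9.9 to 81.6). Of all intervals in the list 878 (21.1%) had it, and of the 1218 inside a gene without a CpG island 373 (30.6%, 28 to 33.3). Both of these shares lie within the interval of the 7, so at this number of intervals a difference was not detectable. Binomial intervals cover counting error only.

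The word nearest to a summit was that of interval 3, the member with the lowest score (76.9, in a list that begins at 70). This word began 1 bp from the summit, from 57914593 to 57914599, in intron 10 of VMP1 and 4034 bp upstream of the MIR21 start. Summits were deposited on a grid of density bins of about 32 bp (median 32.05 bp of length per bin), so this distance is known to about a bin. In the list as a whole 76 of 4169 summits had the word beginning within 10 bp. In interval 6 the word began 95 bp from the summit, from 57920671 to 57920677, and in interval 7 at 98 bp, from 57923426 to 57923432.

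Over their whole length the 7 intervals held 6 such words. Interval 7 had 3, interval 1 had 1 at 242 bp from its summit, outside the 300 bp window, and intervals 2, 4 and 5 had 0. This came to 0.569 words per kb, compared with 0.458 per kb over all intervals. The value per kb for intervals inside genes without a CpG island is not given here. At summits the word was more common in that set than in the whole list (30.6% against 21.1%). By summit, the intervals nearest to the start of the hairpin were 5 and 4, and both were without the word.

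Other words were not found in the 7 windows. The palindromes TGACGTCA of the cyclic AMP response element, CACGTG of the E-box and TTCCNGGAA of STAT factors and the B box of tRNA genes on either strand were in 0 of 7. In all intervals they were in 1.3%, 9.28%, 1.06% and 2.3% of windows in that order, and 0 of 7 allows a share of up to 41%, the upper bound of its exact 95% interval. The windows were poor in G and C, at 34% in interval 4, 38.3% in interval 1, 39% in interval 5, 43.3% in interval 2, 44% in interval 3, 45.3% in interval 6 and 46.3% in interval 7. All 7 lay below the median of the list, 49.7%, and 2 of them, intervals 6 and 7, above the median of intervals inside genes without a CpG island, 45%.

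**Figure D4:**
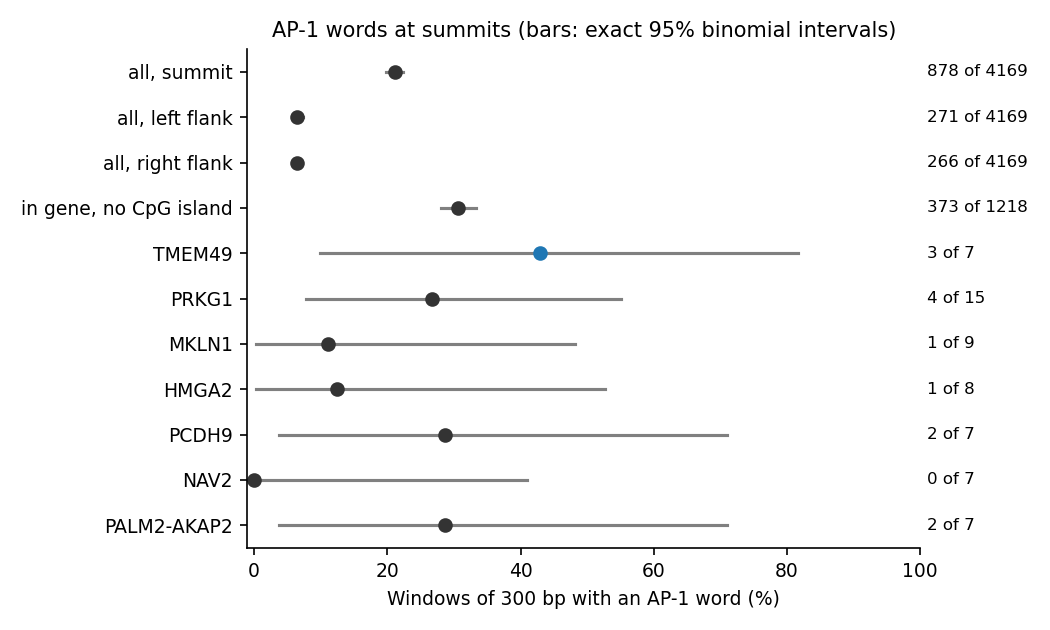
Percent of 300 bp windows with an AP-1 word, for all intervals at the summit and 600 bp to either side, for intervals inside genes without a CpG island, and for 7 genes with many intervals; bars are exact 95% binomial intervals. The TMEM49 share, 3 of 7, has a bar that spans the shares of both larger sets.

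Some of the genes listed with VMP1 for autophagy carried intervals as well, but most did not. Those named below are the ones with the tallest intervals. Of 51 genes of the autophagy machinery and of partners of VMP1, 18 (35.3%) had an interval, VMP1 included, where 15.4% of 20033 protein-coding genes had one. VMP1 has an interval by the choice of this part, and without it the count was 17 of 50. The median height of the tallest interval was 16 in the list and 15 over all protein-coding genes with an interval. An interval summit lay within 1000 bp of the deposited gene start in 7 of the 18 (38.9%), against 44.7% of all genes with one. VMP1 was among the 11 without one there.

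Among these genes VMP1 had the most intervals, though not the tallest. The interval of MAP1LC3B, which encodes the autophagosome marker LC3B, had a height of 128, but lay 8153 bp upstream and was also assigned to FBXO31. That of ZFYVE1, whose protein marks the membrane site where autophagosomes form, had a height of 91 and lay 64128 bp from the start, downstream of the gene, and was also assigned to DCAF4. ATG3, the enzyme that joins LC3 to lipid, had an interval with a height of 69 at 304 bp upstream, shared with SLC35A5.

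Near their starts were also ATG101 of the ULK1 kinase complex, listed as C12orf44 (height 40, shared with NR4A1), UVRAG of the lipid kinase complex (29, shared with LOC100506113), GABARAPL1, a relative of LC3 (28), and ATG16L2 (17). The tallest interval of GABARAP had a height of 49 at 7865 bp, downstream, and was also assigned to ACADVL, DVL2, PHF23 and DULLARD. The interval of ATG9B, also assigned to ABCB8 and LOC100507614, and that of the cargo receptor gene SQSTM1 had a height of 15 each. Scores were 71.17 at SQSTM1, 74.69 at ATG9B, 77.62 at UVRAG and 85.85 at ATG16L2, all below the list's median of 99.22. The tallest intervals of the other autophagy genes named had scores from 212.9 (GABARAP) to 1302 (MAP1LC3B). Where an interval is shared, which gene it belongs to cannot be told apart. All but VMP1 and GABARAP, which had 2, had 1 interval.

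The autophagy list was drawn up with earlier results of these data known, and neighbours, gene length and CpG islands were not matched, so its share is a count beside a background and not a test.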

How the data were processed

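ChIP-seq of sGCβ1 in U-87 MG cells was analysed from the authors' interval list of the 1 ChIP library. Per the series' design text, BWA with its defaults placed 75 nt reads (NextSeq 500) on hg19, reads with at most 2 mismatches and a unique position were kept, and MACS called the intervals. The submitters' processing notes name both tools too. Tool versions, and whether the input was the control, are not stated in the labels or header. Per the file headers, the deposited density signal is given as a maximum (height) and a mean, and the deposited score is the MACS p-value as minus 10 times its log10, from 70 upwards. Density is not stated to be normalized.

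Coordinates are as deposited, with distances and positions relative to genes as the authors' list gives them. Exons came from GENCODE version 44 mapped to GRCh37 (the MANE Select transcript of VMP1), and windows of 300 bp from that genome. Gene symbols were matched by symbol or synonym on the same chromosome through RefSeq (GRCh38.p14), 3306 of 3677 (89.9%). The word search was tested on simulated data. Python 3.11.15, pandas 2.3.3 and scipy 1.17.1 were used. No test was made, as 1 library allows none. Members and gene lists were chosen with earlier results of these data known; the STAT word was added after the intervals had been seen. Genes named were VMP1 and MIR21, neighbours within 200 kb, genes tied with TMEM49 in number and the comparison genes. The listed autophagy genes with the tallest intervals (up to 10, ties kept) were named too. NEAT1, FRMD8, MIR612 and MIR605 were named after their values were seen. A list of miR-21 targets and some sequence windows are not reported here. Alternatives were stricter parts of the list, other assignments, merging, other windows and the mean density.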

Additional observations from a re-analysis of the deposited data

How the results depend on the processing

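The number of intervals at TMEM49 was 7 as deposited. It was 5 at or above the median score, 5 with the summit inside the annotated gene and 6 with any overlap. It was 2 from the upper quartile of score upwards (intervals 6 and 7), 3 at or above the median height, 4 with intervals within 1000 bp merged and 3 with those within 10000 bp merged. Fewer intervals follow from these choices by construction. The AP-1 word was in 3 of 7 windows of 300 bp, 4 of 1000 bp and 1 of 100 bp, in 0 windows 600 bp to the left and 1 to the right, and in 5 with a word of 6 letters (GAGTCA or the word TGAGTC, on either strand). Over all intervals the share was 21.1% at the summit, 6.5% to the left and 6.38% to the right. It was 39.8% in windows of 1000 bp, 7.84% in those of 100 bp and 36.8% with the word of 6 letters. Among intervals inside a gene without a CpG island it was 54.1%, 10.9% and 45.6%, in that order. Autophagy genes with an interval numbered 18 of 51, but 11 at or above the median score (21.6%, against 8.76% of all protein-coding genes), 8 at or above its upper quartile (15.7%, against 4.79%), 10 with a summit within 1000 bp of an annotated transcript start (19.6%, against 8.67%) and 11 with one inside the annotated gene (21.6%, against 9.88%). VMP1, which has an interval by the choice of this part, was kept in the list of 51 at each setting. With mean density as the strength, the median of the 7 was 6.88 in place of a height of 13, below the list's median on either scale (7.3 and 14). No paired analysis was possible because there was 1 ChIP library and no test. Since depth is unknown, intervals missed for want of reads cannot be counted.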

Other observations

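Intervals longer than 3000 bp without a CpG island numbered 75 in the list, with a median score of 165.9. In this set 2 had a higher score than interval 6, and 2 a higher mean density. Of the 3 stretches with 5 or more summits within 10000 bp, the AP-1 word was in the 300 bp windows of 3 of 5 intervals at MIR21, 0 of 8 at NEAT1 and 0 of 6 in the stretch on chromosome 16. CpG islands overlapped 0, 1 and 3 intervals of these stretches, in that order. These sets were chosen after their values were seen.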
